A study of Oryza sativa with 6 samples.

Results

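The genes described here are 34 rice genes with a description from the F-box and ubiquitin pathway of protein breakdown, out of 27397 genes with values. They were chosen from the authors' deposited table of 1962 genes that differ between pine1 and wild type, as those whose descriptions name an F-box, ubiquitin, a BTB domain, a U-box or SKP1. Because that table was made from the same comparison, a difference between the genotypes is the ground on which each gene was chosen, and the differences below are a description with no test. The choice also left out zinc finger descriptions and loci from Os11g0220000 to Os11g0245000, which removed 0 genes. Of the 34, 0 were named for a U-box or SKP1. Both descriptions of a gene matched in 13 of the 34, the second alone in 16 and the first alone in 5. In the authors' deposited table, 19 of the 34 were higher and 15 lower in pine1, beside 1172 higher and 790 lower among all its genes. The highest adjusted p of the 34 in that table is 0.0465, for BTBN18, just inside the table's limit, where the highest of all is 0.0496. Genes outside the table carry no description, so those just beyond the limit cannot be shown.

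Proteins are marked for breakdown when an activating (E1), a conjugating (E2) and a ligating (E3) enzyme pass ubiquitin to them in turn. In one large family of ligases, built on a cullin, an F-box protein is the interchangeable part that holds the substrate and is joined to the cullin by an SKP1-like adaptor. BTB proteins do the same work on another cullin, and ubiquitin hydrolases take the mark off again. Plants have very large families of F-box genes, and receptors of auxin, jasmonate, gibberellin and strigolactone signalling work through some of them, which is how this pathway is tied to stem growth and branching.

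RNA was sequenced from the lowest 1 cm of shoots grown for 20 days after germination in 16 h days, a piece made up of stem and shoot apex. The groups were pine1-1a, a knockout line in the Nipponbare background, and wild-type Nipponbare, untreated, with 3 samples of 8 pooled plants each. The mutant group is 1 line, its mutation is not described in the labels, and nothing says that the pools came from separate sowings, so tests measure the spread between these samples. Levels are the authors' normalized reads, gene counts divided by a size factor of the library. 1 read was worth 0.855 to 1.13 normalized reads. Reads counted in the genes with values came to 27918842 to 36250239 per library.

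Os12g0617000, the PINE1 locus, had 5199, 5044 and 4173 normalized reads in pine1 and 3569, 3674 and 2943 in wild type, so its RNA level does not check the labels. Here pine1 stands throughout for the libraries labelled so. Markers of the sampled tissue were present. The meristem genes OSH1 (Os03g0727000) and OSH15 (Os07g0129700) together had 2202 to 2912 normalized reads in pine1 libraries and 928 to 1293 in wild-type libraries. Limma called both higher in pine1, OSH1 (log2 1.30, SE 0.18, adjusted p = 0.0032) and OSH15 (log2 1.08, SE 0.13, adjusted p = 0.0014). Of 4 loci written down as leaf photosynthesis markers, 3 could be tested and 1 was called. Only the called one carries a symbol here. Their summed level was 1254 to 1323 normalized reads in pine1 libraries and 1143 to 1383 in wild-type libraries. These 4 loci went both ways. The called one, RbcS3 (Os12g0291100), averaged 443 ± 51.3 normalized reads in pine1 and 331 ± 11.2 in wild type (SD, n = 3 each). The most abundant one, Os12g0292400, averaged 691 ± 104 in pine1 and 824 ± 123 in wild type (SD, n = 3 each) and did not pass (log2 -0.25, SE 0.13, limma adjusted p = 0.33). A locus written down as a root marker carries no description here. It had 88.9, 268 and 297 normalized reads in pine1 and 355, 395 and 589 in wild type. The difference did not pass (log2 -1.18, SE 0.40, limma adjusted p = 0.13). The part of these shifts in the results below was not tested, and in whole tissue fewer cells of a type and less RNA per cell cannot be told apart.

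All 34 genes passed the filter on low reads, 28 of them in both genotypes and 6 through the genotype with the higher level alone. The 6 were Os02g0798800, higher in pine1, and Os04g0371600, Os08g0527800, Os07g0574200, OsFbox608 and OsFbox607, lower in pine1. All 6 differed by at least 2-fold. Between genotypes, levels were without overlap in 33 of the 34, all but OsFBK1, beside 26.4% of the 24149 genes tested. A fit across all genes (limma, adjusted p under 0.05) called 16 of the 34 higher and 14 lower in pine1, beside 4.02% higher and 2.44% lower of all genes tested. These counts follow from how the genes were chosen. Leaving out pine1 replicate 3 gave 8 lower calls. With wild type replicate 1 left out, 10 were called higher and 9 lower; with replicate 2 of that genotype left out 8 were called lower, and with its replicate 3 left out 6. The 4 genes that limma did not call were OsUBC6, BTBN18, OsFbox258 and OsFBK1. The median log2 fold change of the 34 was 0.34, and that of all genes tested was 0.00. Differences were at least 2-fold in 13 genes, 7 higher and 6 lower in pine1, all 13 called by limma, beside 1.72% of all genes tested called and at least 2-fold higher and 0.687% called and at least 2-fold lower. They were under 1.5-fold in another 13. Reads per gene depend on gene length, so levels are compared between genotypes and not between genes.

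**Figure D1:**
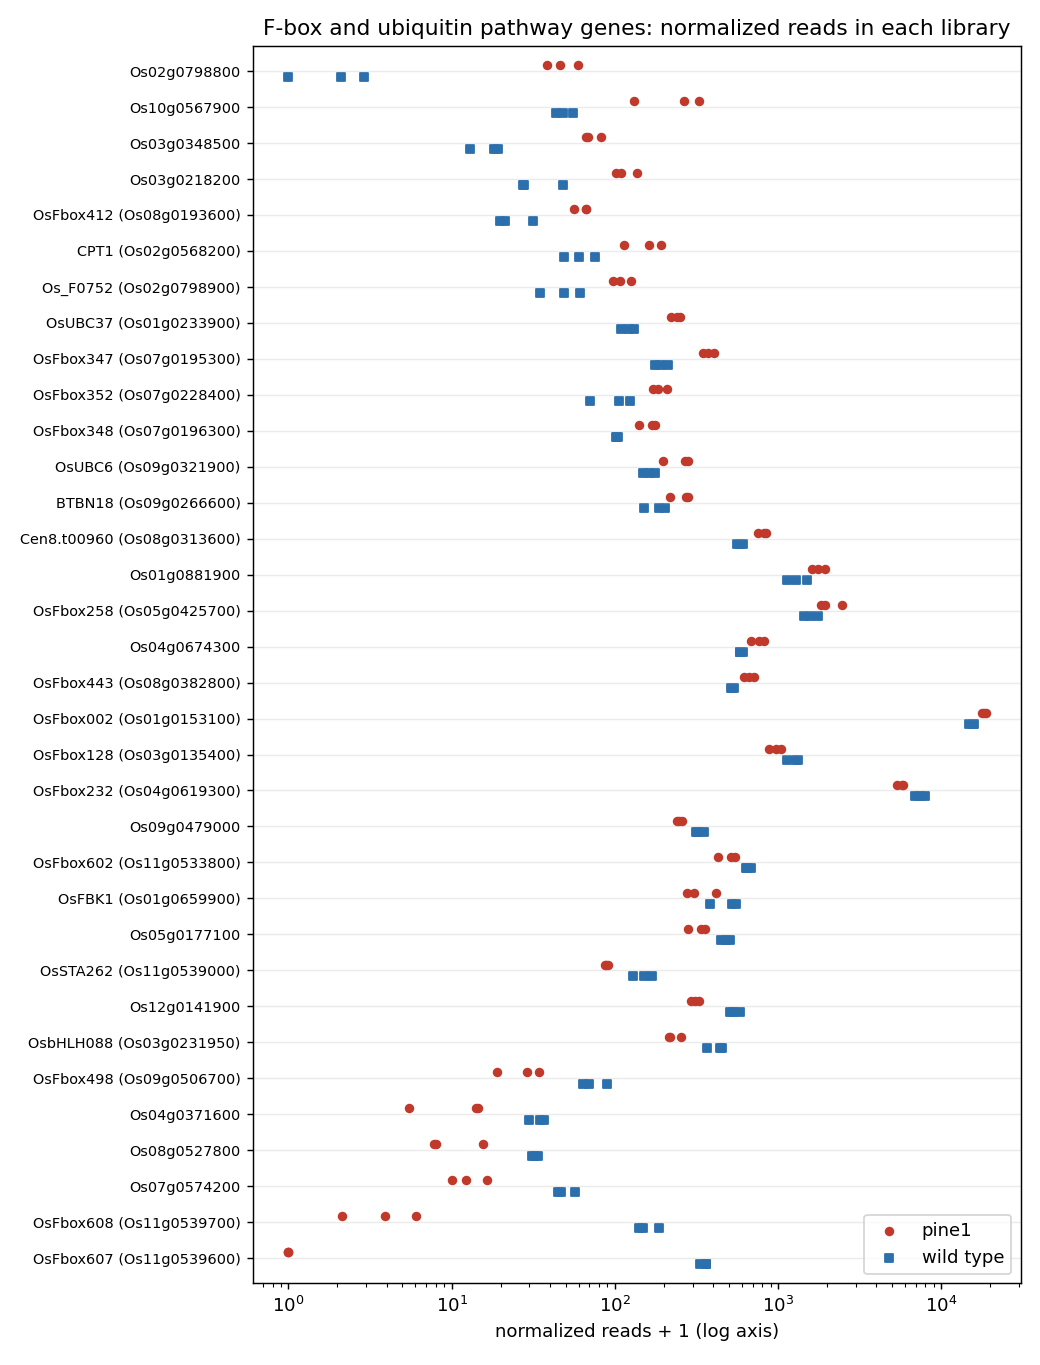
Normalized reads + 1 (log axis) of the 34 genes in each of the 3 pine1 libraries (circles) and the 3 wild-type libraries (squares), ordered by fold change. The genotypes are apart in 33 genes and overlap in OsFBK1, and OsFbox607 sits at 0 reads in all 3 pine1 libraries.

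The largest differences belonged to OsFbox607 (Os11g0539600) and OsFbox608 (Os11g0539700), F-box genes without a further named domain that are consecutive measured loci on chromosome 11. OsFbox607 had 0 reads in each of the 3 pine1 libraries and 364, 359 and 331 normalized reads in wild type. Against a floor of 3 reads per library, it was at least 113-fold lower in pine1. OsFbox608 had 2.90, 5.05 and 1.13 normalized reads in pine1 and 139.8, 185 and 149 in wild type. That is 9 reads in all pine1 libraries together and 495 in wild type, and the level in wild type was 51.2 times that in pine1 (exact 95% interval 26.8 to 113, counting error only). Thus OsFbox608 was still read in every pine1 library, while OsFbox607 had no reads there.

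OsSTA262 (Os11g0539000), described as an F-box and cyclin-like domain protein, lies 2 measured loci before OsFbox607. It had 87.0, 89.9 and 85.7 normalized reads in pine1 and 167, 129 and 150.4 in wild type, a log2 fold change of -0.75 (SE 0.15). Every pine1 library was below every wild-type library, and the 3 pine1 values lay close together. OsFbox602 (Os11g0533800), 11 measured loci before OsSTA262, averaged 495 ± 59.2 normalized reads in pine1 and 654 ± 22.4 in wild type (SD, n = 3 each; log2 -0.41, SE 0.10). All 4 F-box genes of the set on chromosome 11 were therefore lower in pine1, by very different amounts.

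Loci between and beside them, which are not F-box genes of the set, went both ways. OsXTH2 (Os11g0539200), a gene of xyloglucan remodelling in the wall that lies between OsSTA262 and OsFbox607, had 1634, 1487 and 1479 normalized reads in pine1 and 1798, 2205 and 2312 in wild type. Its log2 fold change was -0.45 (SE 0.09, limma adjusted p = 0.022). Os11g0539800, similar to Xaa-Pro aminopeptidase 1, which trims peptides that hold proline, comes right after OsFbox608. It had 7374, 7798 and 8200 normalized reads in pine1 and 4542, 4155 and 4373 in wild type (log2 0.84, SE 0.05, limma adjusted p = 4.5e-05). Os11g0540100, next in order and similar to Xaa-Pro aminopeptidase 2, had 37.7, 37.4 and 68.8 normalized reads in pine1 and 14.2, 5.77 and 12.8 in wild type (log2 2.06, SE 0.39, limma adjusted p = 0.015). So 4 consecutive loci were lower in pine1 and the next 2 were higher.

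These 6 consecutive measured loci were all called by limma. Only 2 runs of 6 consecutive called loci occurred among all measured loci, both on chromosome 11, with none longer. The other run, from Os11g0233201 to Os11g0234200, lies in the stretch that the choice of genes left out. Of the 6 loci here, 3 are genes of the set, so their calls follow from how they were chosen. Without pine1 replicate 3, 3 of these 6 loci were called. The run ended at Os11g0538900 on one side, with 1770 ± 72.3 normalized reads in pine1 and 1855 ± 71.8 in wild type, and at Os11g0540800 on the other, with 47.3 ± 8.12 in pine1 and 38.4 ± 12.4 in wild type (SD, n = 3 each). Neither passed the limma test, with adjusted p of 0.56 for each. From OsFbox602 to OsFbox608, 15 loci were measured and 14 tested, and of the 11 that are outside the set, OsXTH2 and Os11g0537375 were the 2 called. Os11g0537375, a hypothetical protein, was higher in pine1 (log2 0.50, SE 0.11, limma adjusted p = 0.033). No source names a strand-specific kit, and reads of overlapping genes on opposite strands cannot be told apart.

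**Figure D2:**
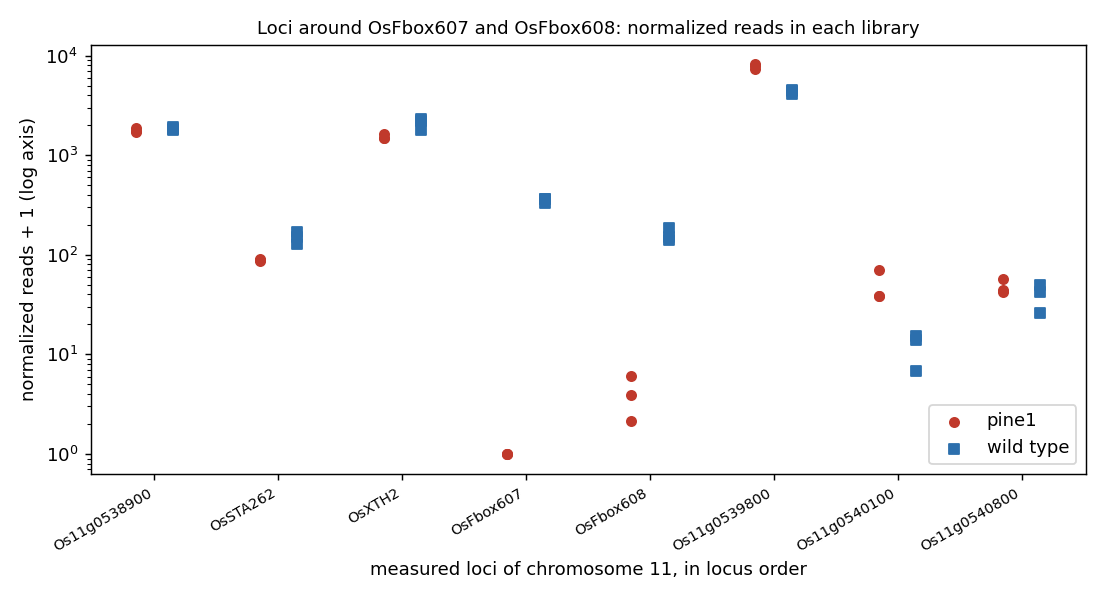
Normalized reads + 1 (log axis) of 8 consecutive measured loci of chromosome 11 in the 3 pine1 libraries (circles) and the 3 wild-type libraries (squares). OsSTA262, OsXTH2, OsFbox607 and OsFbox608 are lower in pine1, Os11g0539800 and Os11g0540100 are higher, and the outermost loci, Os11g0538900 and Os11g0540800, overlap between genotypes.

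F-box proteins with leucine-rich repeats, the repeats with which this group holds its substrates, numbered 6, of which 4 were higher and 2 lower in pine1. The pair Os02g0798800 and Os_F0752 (Os02g0798900) are consecutive loci on chromosome 2 with the same second description, F-box/LRR-repeat protein 14. Os02g0798800 had 37.7, 45.5 and 58.7 normalized reads in pine1 and 1.09, 1.92 and 0 in wild type. With 136 reads in all pine1 libraries together and 3 in wild type, the level in pine1 was 48.7 times that in wild type (exact 95% interval 16.3 to 239, counting error only). Os_F0752 had 125, 97.0 and 107 normalized reads in pine1 and 33.9, 48.1 and 59.8 in wild type, a log2 fold change of 1.23 (SE 0.23). In both genes every pine1 library was above every wild-type library. Os02g0798800 was thus almost without reads in wild type, where its neighbour was read.

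Around this pair, 6 further loci within 3 steps were tested and 0 were called by limma, with 1 at an unadjusted p under 0.05, 0 called by edgeR and 1 by DESeq2. The locus at an unadjusted p under 0.05 is Os02g0799300, which is in the authors' deposited table. It averaged 3360 ± 345 normalized reads in pine1 and 4187 ± 353 in wild type, without overlap (log2 -0.32, SE 0.08, limma adjusted p = 0.058). Os02g0798700, just before the pair, averaged 1446 ± 13.9 normalized reads in pine1 and 1444 ± 66.1 in wild type (SD, n = 3 each; log2 0.00, SE 0.06). Os02g0799000, just after it, averaged 324 ± 23.2 in pine1 and 287.5 ± 19.1 in wild type (log2 0.17, SE 0.10, limma adjusted p = 0.38).

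Another gene with the F-box/LRR-repeat protein 14 description, Os04g0371600 on chromosome 4, was lower in pine1. It had 13.5, 13.1 and 4.51 normalized reads in pine1 and 33.9, 28.8 and 35.9 in wild type (log2 -1.69, SE 0.40). The value of pine1 replicate 3 was the lowest, and the log2 fold change was -1.23 without it. The treatment of reads that map to several copies is not stated for the authors' counting, so values of genes with the same description may share reads. OsFbox128 (Os03g0135400), with F-box and leucine-rich repeat domains, averaged 965 ± 79.9 normalized reads in pine1 and 1249 ± 99.6 in wild type (log2 -0.37, SE 0.08). Os01g0881900 averaged 1776 ± 164 in pine1 and 1312 ± 190 in wild type (log2 0.44, SE 0.11). OsFbox258 (Os05g0425700), similar to the F-box protein AtFBL5 of Arabidopsis, averaged 2078 ± 349 in pine1 and 1593 ± 166 in wild type (log2 0.38, SE 0.12; SD, n = 3 each). In these 3 genes the genotypes were apart by less than 1.5-fold.

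Another 12 F-box genes, counting those of chromosome 11 above, had no further named domain or a cyclin-like one alone. Of these, 6 were higher and 6 lower in pine1. The higher ones include another pair of near neighbours, on chromosome 7. OsFbox347 (Os07g0195300) had 345, 403 and 371 normalized reads in pine1 and 175, 188 and 210.3 in wild type (log2 0.96, SE 0.11). OsFbox348 (Os07g0196300) had 168, 175 and 139.9 in pine1 and 102.7, 100.9 and 103.4 in wild type (log2 0.64, SE 0.14). Both were higher in each pine1 library than in any wild-type library. Between them lie 4 measured loci, and of the 10 loci outside the set within 3 steps of either, limma called 0, edgeR 0 and DESeq2 0, with 1 at an unadjusted p under 0.05. That 1 is Os07g0195350, the locus after OsFbox347, with 33.8, 54.6 and 32.7 normalized reads in pine1 and 18.6, 20.2 and 21.4 in wild type (log2 0.94, SE 0.27, limma adjusted p = 0.079). Its groups did not overlap, and the files give it no description.

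**Figure D3:**
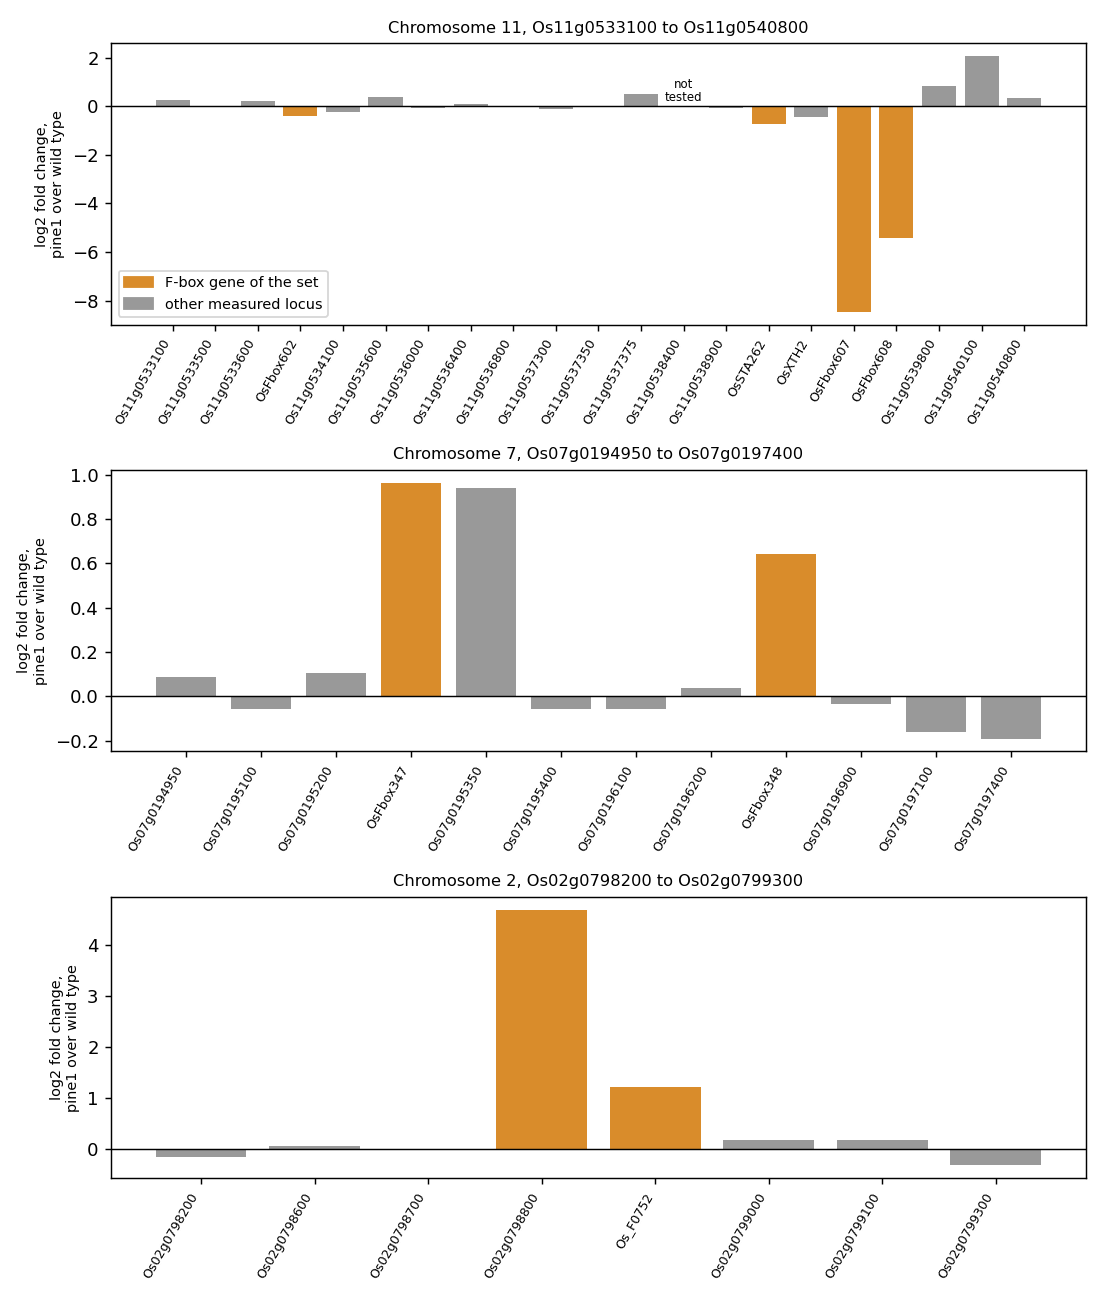
Log2 fold change, pine1 over wild type, of measured loci in locus order around neighbouring F-box genes of chromosomes 11, 7 and 2, with genes of the set in orange and other loci in grey; the vertical scales differ between panels. On chromosome 11 the loci beside the F-box genes move as well, from -0.45 in OsXTH2 to 2.06 in Os11g0540100, while on chromosome 2 the loci outside the pair lie between -0.32 and 0.17.

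OsFbox352 (Os07g0228400), also on chromosome 7 but not near the pair, had 170.1, 183 and 209 normalized reads in pine1 and 69.9, 123 and 105 in wild type (log2 0.94, SE 0.21). Os03g0218200, similar to an F-box domain protein, had 135, 101.1 and 108 in pine1 and 26.2, 26.9 and 47.0 in wild type (log2 1.79, SE 0.25). OsFbox412 (Os08g0193600) had 55.1, 65.7 and 65.4 in pine1 and 30.6, 20.2 and 18.8 in wild type (log2 1.41, SE 0.25). The lowest pine1 value was above the highest wild-type value in each of these 3 genes. OsFbox443 (Os08g0382800) differed less, with 663 ± 44.3 normalized reads in pine1 and 525 ± 13.2 in wild type (SD, n = 3 each; log2 0.33, SE 0.08).

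Of the genes of this kind that were lower in pine1, OsFbox498 (Os09g0506700) had 28.0, 33.3 and 18.05 normalized reads in pine1 and 68.8, 62.5 and 88.9 in wild type (log2 -1.46, SE 0.27). Os05g0177100 had 281, 357 and 336 in pine1 and 445, 480 and 509 in wild type (log2 -0.56, SE 0.11). Neither gene's genotypes overlapped. PAIR2 (Os09g0506800), chosen like the other called neighbours below after its value was seen, is a gene of chromosome pairing in meiosis and the locus after OsFbox498. It averaged 419 ± 36.9 normalized reads in pine1 and 578 ± 25.1 in wild type (SD, n = 3 each, log2 -0.46, SE 0.09, limma adjusted p = 0.016).

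Both kelch-repeat F-box genes were lower in pine1. OsFBK1 (Os01g0659900) belongs to a ligase complex that regulates lignin and the secondary wall of anthers and roots, per the authors' deposited table. It had 415, 303 and 276 normalized reads in pine1 and 552, 523 and 383 in wild type. Its log2 fold change was -0.55 (SE 0.18), which limma did not call (adjusted p = 0.11). The highest pine1 library was above the lowest wild-type library, which makes it the 1 gene of the 34 whose genotypes overlap. OsFbox232 (Os04g0619300) averaged 5647 ± 257 normalized reads in pine1 and 7394 ± 497 in wild type (SD, n = 3 each; log2 -0.39, SE 0.06), with all pine1 libraries below all wild-type libraries.

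Os10g0567900 and Os09g0479000 both carry an F-box interaction domain description and went opposite ways. Os10g0567900 had 130.4, 266 and 326 normalized reads in pine1 and 54.6, 47.1 and 42.7 in wild type (log2 2.20, SE 0.30). Its pine1 libraries spread widely, with replicate 1 the lowest, and the log2 fold change was 2.59 without pine1 replicate 1 and 1.94 without pine1 replicate 3. Os09g0479000, similar to FIMBRIATA, an F-box protein of floral meristem patterning in snapdragon, averaged 247 ± 9.31 in pine1 and 329 ± 18.8 in wild type (SD, n = 3 each; log2 -0.41, SE 0.10). Os03g0348500, described as tubby-like F-box protein 3, had 81.2, 65.7 and 67.7 normalized reads in pine1 and 12.0, 18.3 and 17.1 in wild type (log2 2.12, SE 0.24), so its lowest pine1 library was well above its highest wild-type library.

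A pair of genes bear the word F-box in 1 description and another kind of protein in the other. OsFbox002 (Os01g0153100) is described as similar to histone H2B-3, a core histone, and averaged 18319 ± 444 normalized reads in pine1 and 15436 ± 564 in wild type (SD, n = 3 each; log2 0.25, SE 0.04). This was the smallest difference of the 34. OsbHLH088 (Os03g0231950), described as similar to a helix-loop-helix DNA-binding protein, had 215, 255 and 214 normalized reads in pine1 and 451, 442 and 366 in wild type (log2 -0.87, SE 0.12). The genotypes did not overlap in either gene. Whether either of them, or OsFbox607 or any other gene of the set, encodes the protein described was not checked.

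The 3 BTB genes, all of the NPH3 type that in Arabidopsis joins the blue light receptor of phototropism to a cullin ligase, were higher in pine1. CPT1 (Os02g0568200), which rice coleoptiles need to bend towards light, had 161, 192 and 113 normalized reads in pine1 and 74.3, 59.6 and 47.9 in wild type (log2 1.33, SE 0.23). BTBN18 (Os09g0266600) had 272, 216 and 281 in pine1 and 201, 186 and 149.6 in wild type. Limma did not call it (log2 0.52, SE 0.15, adjusted p = 0.085). Os04g0674300 had 761, 682 and 815 in pine1 and 613, 586 and 583 in wild type (log2 0.34, SE 0.08). All 3 had every pine1 library above every wild-type library, with the gap on the log2 scale widest for CPT1.

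BTBN18 was flanked by loci that limma called in opposite directions. Os09g0266400, a PGAP1-like gene, was lower in pine1 (log2 -0.29, SE 0.05, adjusted p = 0.013), and Os09g0266950, a hypothetical protein, was higher (log2 0.87, SE 0.19, adjusted p = 0.025).

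Both conjugating enzymes were higher in pine1. OsUBC37 (Os01g0233900), described as a ubiquitin conjugating enzyme, had 248, 221 and 239 normalized reads in pine1 and 129.97, 122 and 109 in wild type (log2 0.97, SE 0.12). OsUBC6 (Os09g0321900), similar to the enzyme that passes the ubiquitin-like protein NEDD8 to its targets, of which cullins are the best known, had 269.6, 281 and 196 in pine1 and 149, 161 and 176 in wild type (log2 0.60, SE 0.16). Neither overlapped between genotypes, although pine1 replicate 3 lay close to the wild-type libraries for OsUBC6. Limma did not call OsUBC6 (adjusted p = 0.055).

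Genes of ubiquitin-like or ubiquitin-binding proteins and the ubiquitin hydrolase were lower in pine1 in 3 of 4 cases. Os07g0574200, described as SMT3, the ubiquitin-like modifier also known as SUMO, had 15.5, 9.09 and 11.3 normalized reads in pine1 and 45.9, 55.7 and 43.6 in wild type (log2 -1.95, SE 0.28). Os12g0141900, similar to membrane-anchored ubiquitin-fold protein 3, of a family that in Arabidopsis holds conjugating enzymes at the plasma membrane, had 329, 310.2 and 293 in pine1 and 508, 527 and 584 in wild type (log2 -0.79, SE 0.09). Os08g0527800, similar to a ubiquitin carboxyl-terminal hydrolase, had 14.5, 7.07 and 6.77 in pine1 and 31.7, 32.7 and 29.9 in wild type (log2 -1.71, SE 0.34). In all 3 the wild-type libraries were above the pine1 libraries, and Os07g0574200 and Os08g0527800 had few reads in either genotype.

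Cen8.t00960 (Os08g0313600), with a CUE domain, a small module that binds ubiquitin, was the exception. It had 755, 818 and 846 normalized reads in pine1 and 583, 606 and 556 in wild type (log2 0.47, SE 0.07), with no overlap. OsDegp14 (Os12g0141600), the locus before Os12g0141900, was also named after its value was seen. It averaged 1242 ± 16.7 normalized reads in pine1 and 1700.4 ± 52.8 in wild type (SD, n = 3 each, log2 -0.45, SE 0.05, limma adjusted p = 0.0014).

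**Figure D4:**
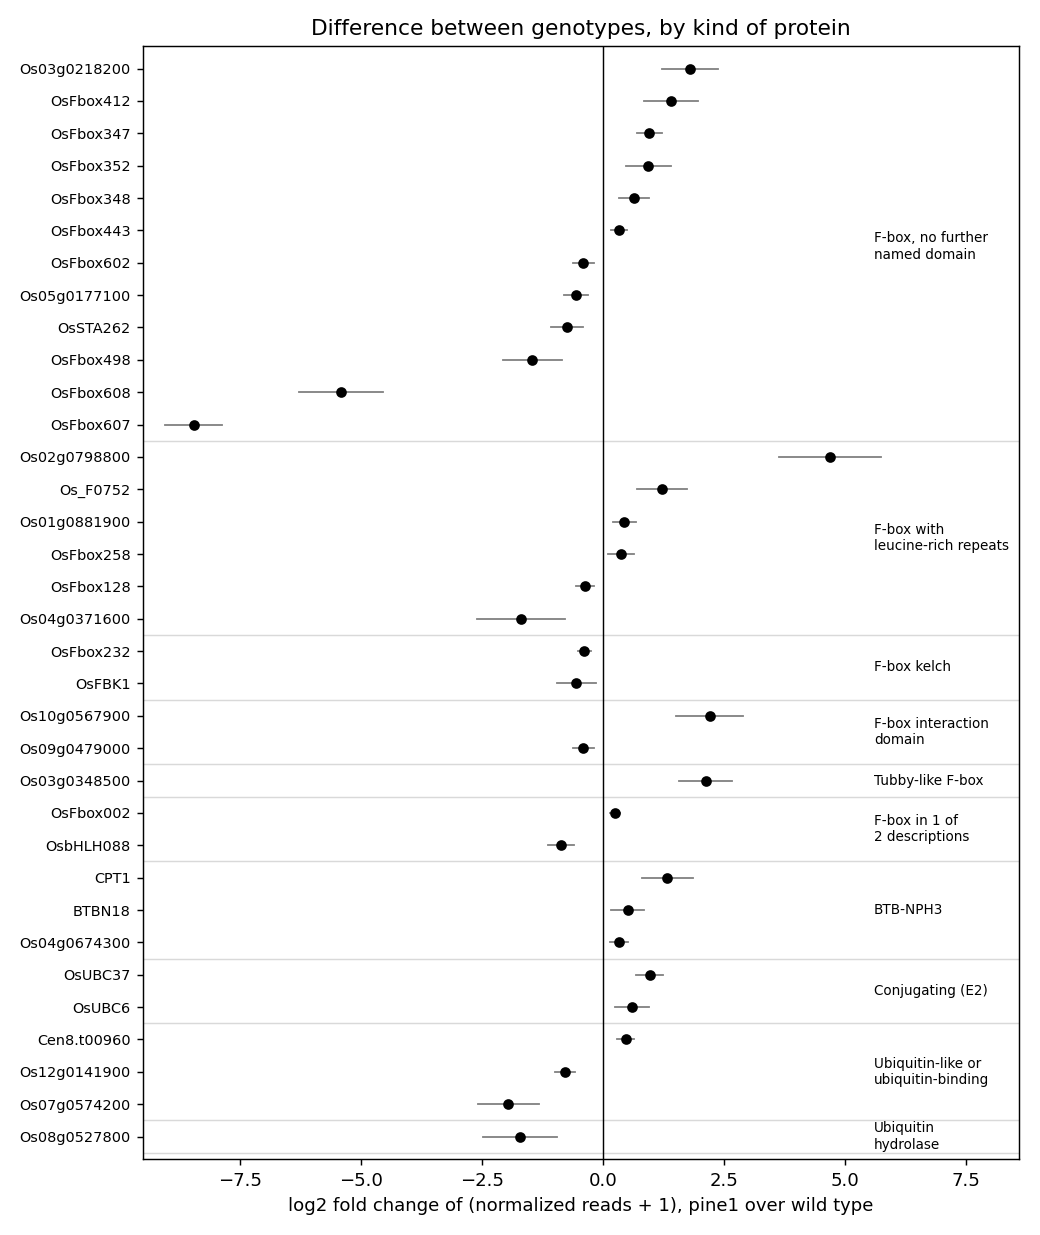
Log2 fold change of (normalized reads + 1), pine1 over wild type, of the 34 genes grouped by kind of protein; points are limma estimates and lines their 95% intervals. F-box genes lie on both sides of 0. The 3 BTB genes and both conjugating enzymes lie above 0, and both kelch genes and the ubiquitin hydrolase lie below 0. OsUBC6, BTBN18, OsFbox258 and OsFBK1 were not called by limma, and the intervals are not adjusted for the number of genes.

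The share of called loci near the 34 genes was counted as a description, with no test. Of 163 tested loci within 3 steps of a gene of the set and outside it, 20 were called by limma, 10 higher and 10 lower in pine1, which is 12.3%, beside 6.46% of all genes tested. Without the loci from Os11g0537375 to Os11g0540800 the share was 10.2%. Of the 163 loci, 13 (7.98%) were called when pine1 replicate 3 was left out. The count was 13 (7.98%), 10 (6.13%) and 12 (7.36%) when wild type replicate 1, 2 or 3 was. In these 4 runs, 3.41% to 4.38% of all genes tested were called. Of the 51 tested loci right next to a gene of the set and outside it, limma called 6, or 11.8%. These were 2 higher and 4 lower in pine1, and all are named above. Other members of the set were near neighbours in 3 places only, if near means at most 10 steps apart. These are the stretches of chromosomes 11, 7 and 2 above.

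Other genes of the pathway were taken from a list of 33 loci, written down from general knowledge as hormone and clock F-box receptors, cullin ligase subunits, NPR1-type BTB genes, other ligases, ubiquitin and a conjugating enzyme. It was written with earlier results of these data known, so its counts are a description. The files do not annotate them, so the identity of each was not checked and none is named. Of the list, 31 loci are in the table and were tested, and 0 of the 31 passed in either direction by limma, edgeR or DESeq2, with 3 at an unadjusted p under 0.05 in limma. Without pine1 replicate 3, 1 was called higher. Their log2 fold changes ran from -0.14 to 0.32, with a median of 0.04, beside a median of 0.00 for all genes tested. The genotypes did not overlap in 5 of the 31, or 16.1%, beside 26.4% of all genes tested. None of the 31 is in the authors' deposited table.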

How the data were processed

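The tools in the submitters' processing notes are STAR, HTSeq, DESeq2 and FastQC, and the build is IRGSP-1.0, without tool versions or settings. The deposited sheet stacks an upper table of normalized reads, a signal per gene and library, in which the authors had scaled each library's counts by its size factor, and a lower table of the authors' own comparison. In every library 100% of values fell on whole multiples of a single step, to within 0.001 reads, which let whole reads be recovered; the smallest gene total is 10. The authors' log2 fold changes run wild type over pine1, as checked in all 1961 genes of both tables, and were turned round here. Deposited adjusted p-values are quoted as such.

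Genes were kept by edgeR's filterByExpr (minimum count 10), which left 24149. Values were fitted as log2(normalized reads + 1) by genotype with limma (empirical Bayes, intensity trend), adjusted by Benjamini-Hochberg over these genes and called under 0.05. Fold changes are on that scale, which understates those of low genes. Alternatives were edgeR's quasi-likelihood test and DESeq2 on recovered reads, TMM scaling, an added 0.5 or 5, no filter or 5 CPM, a replicate block and each library left out. The fit was run on simulated data with a single setting of spread for all genes and changes of at least 2-fold. That run does not cover smaller differences or genes with a wider spread. The genes and lists were chosen with earlier results of these data known. Values in each library are given for the 10 largest rises and falls, neighbours, genes nearly without reads in a genotype and small classes; other loci are named as neighbours of adjacent genes of the set, and 4 further called loci next to a gene of the set were named after their values were seen. Neighbours are loci consecutive in the upper table, and alternatives for their counts were added after seeing the data. The exact intervals of read ratios reflect counting error alone, in reads counted without molecular identifiers. The limma intervals of log2 fold changes reflect the spread between samples. Fits ran in R 4.3.3 with DESeq2 1.42.0, edgeR 4.0.16 and limma 3.58.1. Tables and plots used matplotlib 3.10.9, scipy 1.17.1, numpy 2.4.6 and pandas 2.3.3 in Python 3.11.15.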

Additional observations from a re-analysis of the deposited data

How the results depend on the processing

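No gene of the 34 changed direction under any alternative run. Of 16 genes called higher and 14 called lower in pine1, the 5 CPM filter left 10 and 9, and descriptions of the 3rd field alone left 6 and 9, in both cases because fewer genes enter. With 1 library left out, the calls ranged from 10 to 13 higher and from 6 to 12 lower, those of all genes from 563 to 757 higher and from 261 to 544 lower, those of loci within 3 steps from 10 to 17, those of the 6 loci from OsSTA262 to Os11g0540100 from 3 to 6, and those of the pathway list from 0 to 1 higher; the cause was not tested. In all, 16 genes kept their call without each library and 14 lost it without at least 1. Deviations of same-numbered samples were weakly correlated (0.055, 0.022 and 0.134), beside -0.241 to 0.161 for samples of unlike number. The numbers were therefore not taken as pairs. With the replicate block the calls were 16 higher and 15 lower, and 1195 and 799 of all genes. More of all genes were called with the block, 8.26% beside 6.46% without it, and the reason was not tested. DESeq2 called all 34, 19 higher and 15 lower, which follows from their choice out of the authors' DESeq2 table, and 8.18% of all genes. Depth limits the genes with few reads: Os04g0371600 had 31 reads in pine1 and 103 in wild type, and Os08g0527800 28 and 98.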
